A study of Mus musculus with 8 samples.

Results

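Interferon-stimulated genes are the genes that cells switch on when they sense interferon, the cytokine family of antiviral defence. A set of 37 of them, named by gene symbol and chosen with earlier results of these data known, was followed in white adipose tissue. All 37 were found among the 18691 genes of the files. They comprised 5 transcription factors, 20 antiviral effectors, 3 sensors of foreign RNA and 9 interferon-inducible GTPases. The tissue was epididymal fat from C57BL/6J mice at 16 weeks of age, either wild type (WT) or lacking Mrp4 (Mrp4-/-), an efflux transporter of cyclic AMP and prostaglandins that the gene Abcc4 encodes. Each group had 4 libraries of polyadenylated RNA. Those of WT carry the numbers 1, 2, 3 and 4, and those labelled Mrp4 knockout carry 1, 2, 4 and 5. The labels name no Cre line, targeted exon, sex or diet. They do not tie the libraries to individual animals, and p-values describe the spread among libraries, which may be technical.

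Type I interferons and interferon gamma bind their own cell-surface receptors, which act through Janus kinases. The kinases phosphorylate STAT proteins. A complex that contains STAT2 and IRF9 binds the interferon-stimulated response element (ISRE) upstream of antiviral genes such as the Ifit and Oas genes, and STAT dimers bind the gamma-activated site (GAS) upstream of genes such as Irf1. In fat, adipocytes, endothelial cells and the resident macrophages and dendritic cells can all carry out this response.

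The upstream DNA is shown for Irf8, the only member that rose, and for Ifit3, Ifit1, Oasl1, Isg15 and Rsad2, which of the members with a promoter window stood highest in WT replicate 3 (WT 3) over the median of the other WT libraries. Promoter windows of 300 bases, from 250 before to 50 after the start of transcription, were taken from RefSeq on GRCm38.p6, and 27 of the 37 genes matched a window. Each window was searched on both strands for the ISRE letters GAAANNGAAA and the GAS letters TTCNNNGAA, which read the same on both strands. Below are the 250 bases before the start, 5′ to 3′ along the gene, with every match to either set of letters in capitals. The Ifit3, Ifit1 and Rsad2 promoters carry the ISRE letters on the opposite strand, so that they read as TTTC runs.
Ifit3, chr19:34583279-34583528, plus strand: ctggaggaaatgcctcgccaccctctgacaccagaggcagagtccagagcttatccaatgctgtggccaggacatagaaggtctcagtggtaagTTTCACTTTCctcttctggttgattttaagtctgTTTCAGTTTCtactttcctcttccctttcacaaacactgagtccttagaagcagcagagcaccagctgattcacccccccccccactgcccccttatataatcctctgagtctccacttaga
Ifit1, chr19:34640639-34640888, plus strand: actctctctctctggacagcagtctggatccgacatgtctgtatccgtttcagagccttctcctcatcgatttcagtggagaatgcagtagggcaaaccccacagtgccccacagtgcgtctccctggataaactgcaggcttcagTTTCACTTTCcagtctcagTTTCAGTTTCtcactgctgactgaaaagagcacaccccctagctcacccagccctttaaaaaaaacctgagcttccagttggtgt
Oasl1, chr5:114922990-114923239, plus strand: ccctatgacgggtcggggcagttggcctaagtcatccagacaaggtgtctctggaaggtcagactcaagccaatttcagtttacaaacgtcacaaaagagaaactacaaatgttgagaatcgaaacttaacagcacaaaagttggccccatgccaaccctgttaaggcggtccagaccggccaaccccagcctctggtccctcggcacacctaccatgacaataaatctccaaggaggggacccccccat
Isg15, chr4:156200819-156201068, minus strand: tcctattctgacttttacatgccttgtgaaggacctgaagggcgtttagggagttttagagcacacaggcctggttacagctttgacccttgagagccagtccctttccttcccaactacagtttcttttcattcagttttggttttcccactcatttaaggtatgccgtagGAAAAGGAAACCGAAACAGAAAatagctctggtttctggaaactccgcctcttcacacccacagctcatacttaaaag
Rsad2, chr12:26456453-26456702, minus strand: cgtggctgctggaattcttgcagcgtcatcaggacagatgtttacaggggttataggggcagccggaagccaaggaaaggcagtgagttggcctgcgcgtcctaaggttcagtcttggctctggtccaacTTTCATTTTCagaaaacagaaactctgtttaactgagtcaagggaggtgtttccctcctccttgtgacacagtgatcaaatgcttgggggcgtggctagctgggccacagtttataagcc
Irf8, chr8:120736108-120736357, plus strand: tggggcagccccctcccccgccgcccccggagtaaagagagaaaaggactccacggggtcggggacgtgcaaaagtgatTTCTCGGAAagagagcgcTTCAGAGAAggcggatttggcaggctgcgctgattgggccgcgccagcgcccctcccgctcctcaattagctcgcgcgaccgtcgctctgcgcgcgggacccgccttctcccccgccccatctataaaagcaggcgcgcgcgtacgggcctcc

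Ifit3 had ISRE letters 156 and 122 bases before its start, and Ifit1 had them 104 and 85 bases before. Ifit2, which is not shown, had no ISRE letters in either of its windows. Oasl1 had neither set of letters in its window. In Isg15, 3 overlapping matches began 78, 72 and 66 bases upstream. Rsad2 had 1 match, 120 bases before the start. Irf8 had no ISRE letters in either of its windows and had GAS letters 171 and 153 bases before the start of the window shown.

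Of the 27 genes with a window, 16 (59.3%) held the ISRE letters, against 3.99% of the 27025 genes in the RefSeq table and 3.86% of the 11269 that were also tested for expression. GAS letters were in 9 of the 27 (33.3%), against 9.55% of all genes and 8.28% of those tested. Counted over windows, 20 of the 25 ISRE matches began within 150 bases before the start. The genes with GAS letters were Bst2, Gbp7, Ifi35, Ifit2, Igtp, Irf1, Irf8, Irgm2 and Oas1a. In Bst2 an ISRE match and a GAS match overlapped. A match describes the letters and is not a measured binding site. Promoters of Dhx58, Gbp6, Ifi27l2a, Iigp1, Mx1, Mx2, Oas2, Rtp4, Usp18 and Zbp1 were not analysed here.

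**Figure D1:**
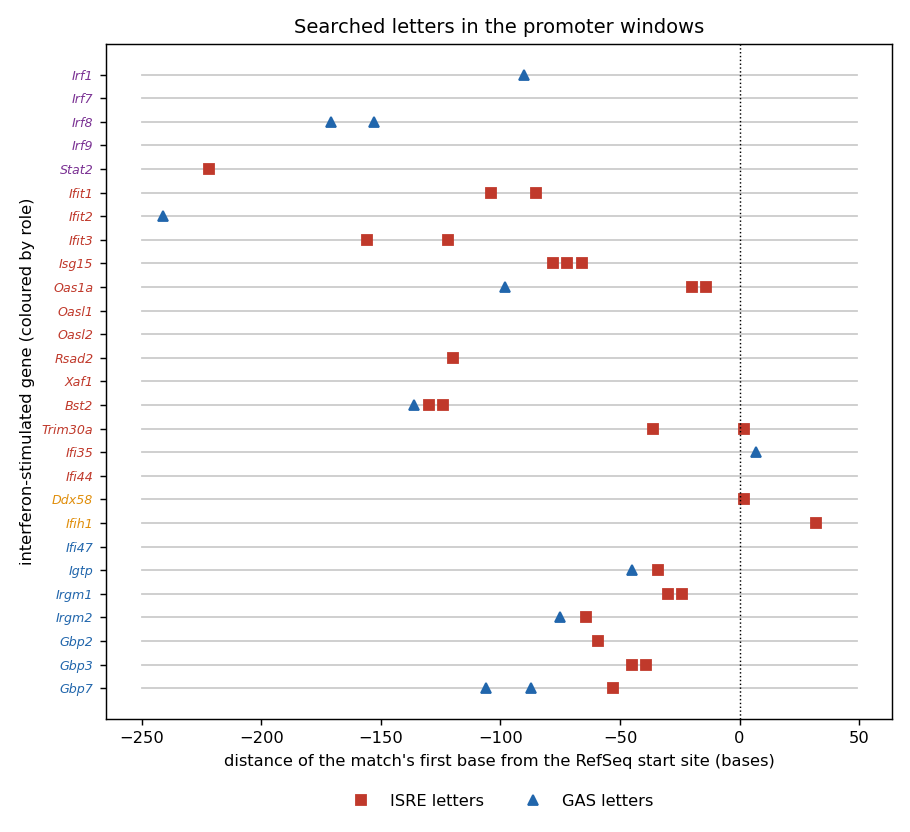
Positions of the ISRE letters (squares) and GAS letters (triangles) in the promoter windows of the 27 genes that matched one, with distance in bases from the RefSeq start site on the horizontal axis and 1 grey line per gene. Genes with more than 1 window are drawn on a single line. ISRE letters are in 16 genes and 20 of 25 matches begin within 150 bases before the start, while Irf8 shows 2 GAS matches and no ISRE match.

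The libraries held 14064681 to 14700114 expected counts, so depth differed little. Adipocyte markers were abundant in both groups, with a sum over 9 markers of 17870 to 22440 FPKM (fragments per kilobase, scaled to library depth) in WT and 19530 to 25400 FPKM in the libraries labelled Mrp4 knockout. Abcc4 was not lower where its loss was labelled. Its level was 3.59, 3.33, 3.81 and 3.33 FPKM in WT 1 to 4 and 3.54, 3.68, 3.89 and 3.31 FPKM in the libraries labelled knockout. The log2 fold change was -0.05 ± 0.08 (SE, adjusted p = 0.692 by edgeR's quasi-likelihood test), and the targeted exon is not given in the labels. Every direction below therefore rests on the labels alone. Over all 14257 genes tested, 18.3% passed an adjusted p of 0.05. The genes higher in the libraries labelled knockout made up 10.2% of those tested, and the lower genes 8.05%.

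WT 3 stood apart for interferon-stimulated genes. It had the highest level of the 8 libraries for 33 of the 37 genes, whereas 9.57% of all tested genes were highest there. The exceptions were Irf1 and Ifi27l2a, highest in WT 1, Irf8, highest in the library labelled knockout 1, and Bst2, highest in that labelled knockout 4. Relative to each gene's own mean over the 8 libraries, the median log2 level of the 37 genes was 0.81 in WT 3. The same median was -0.01, -0.25 and -0.38 in WT 1, 2 and 4, and -0.13, -0.19, 0.13 and -0.10 in the libraries labelled knockout 1, 2, 4 and 5. Because this 1 library moves the WT mean of nearly every member, the comparisons of members below are given with it and without it.

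**Figure D2:**
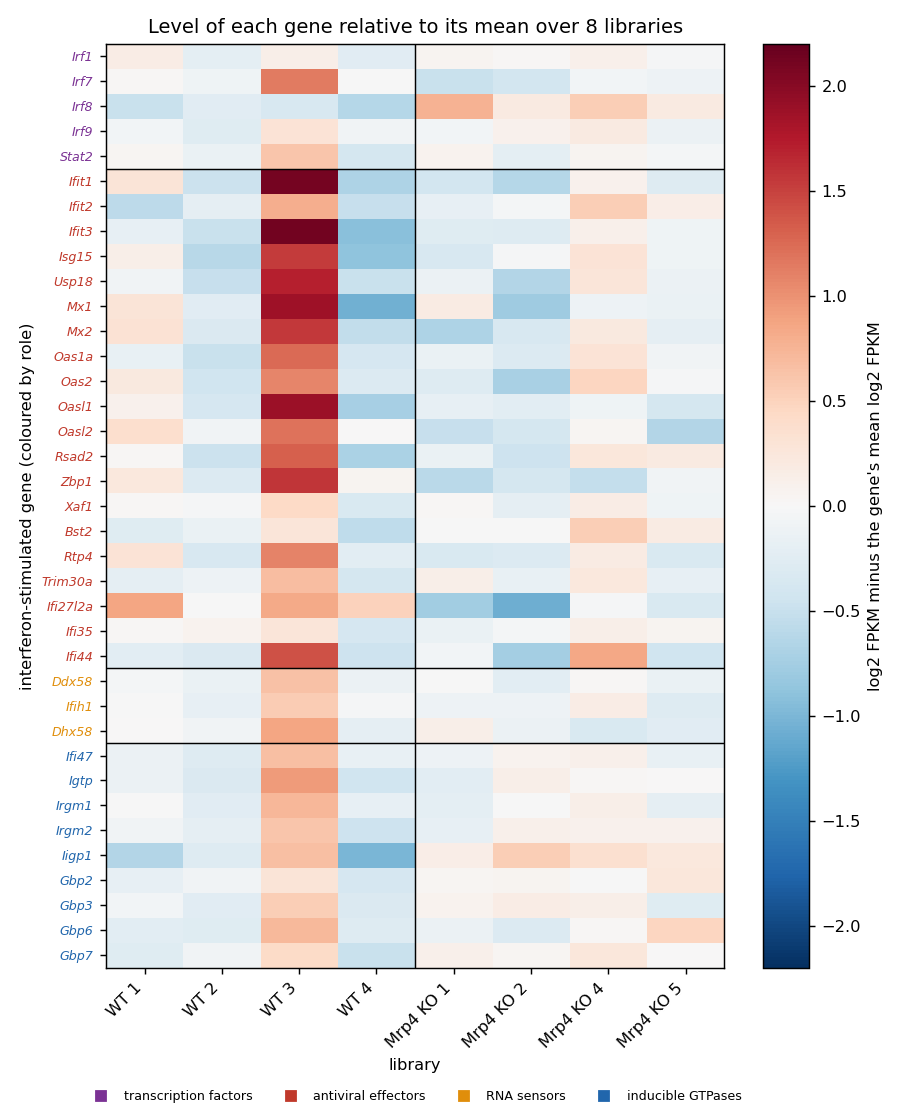
Heatmap of the 37 genes (rows, coloured by role) in the 8 libraries (columns), as log2 FPKM minus the gene's own mean over the libraries. WT 3 is the reddest column for 33 of the 37 genes, and Irf8 is the only transcription factor with higher values in all 4 libraries labelled knockout.

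The excess in WT 3 was steepest for the antiviral effectors. Ifit1 binds viral RNA that lacks the full host cap, and Ifit3 belongs to the same family. Ifit3 measured 48.19 FPKM in WT 3 against 9.81, 7.93 and 5.85 FPKM in WT 1, 2 and 4, which is 6.08 times their median and 4.05 times the next highest library. Ifit1 measured 16.58 FPKM in WT 3 against 4.72, 2.79 and 2.43 FPKM, or 5.94 times their median. Other members of this class followed, each at over 4 times the median of WT 1, 2 and 4: Oasl1, a restrainer of Irf7 translation, at 4.77 times, Usp18, which removes ISG15 from proteins, at 4.61, Isg15 itself at 4.41, and Mx1, an antiviral dynamin-like GTPase, at 4.31.

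Ratios over 2 were found for 18 of the 37 genes, against 1.08% of all genes that reached 1 FPKM in some library. The median ratio was 2.96 for the 20 antiviral effectors, 1.77 for the 9 GTPases, 1.71 for the 3 RNA sensors and 1.3 for the 5 transcription factors. Over all such genes the median ratio was 1.01, with quartiles of 0.929 and 1.11. The lowest ratio among members was 1.1, for Irf8. These are differences between single libraries with no replicate of WT 3, so they carry no test.

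In WT 3, 49 of 13195 genes were at least 1.5 times their level in every other library. Of those 49, 18 were members and 8 came from a separate list of 59 other interferon-induced genes. Between 3 and 108 genes met that ratio in each of the other 7 libraries, with 0 members in any of them. Among the 18 members of WT 3, 11 had a promoter window and 8 of these held ISRE letters. Of the 19 members below that ratio, 16 had a window and 8 held the letters.

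**Figure D3:**
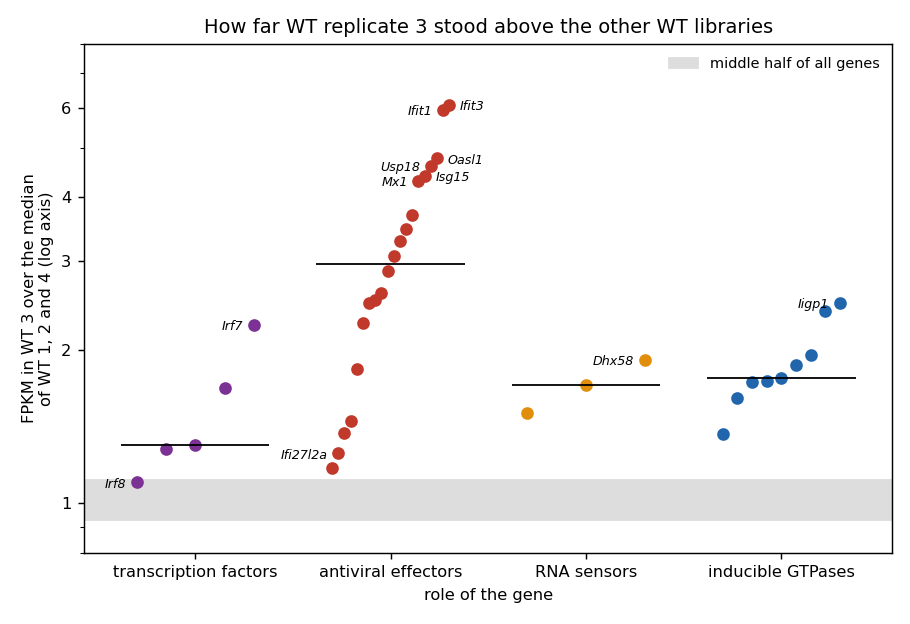
FPKM in WT 3 divided by the median of WT 1, 2 and 4 (log axis), 1 point per gene, grouped by role with a line at the median of each role. The grey band spans the quartiles of all genes, 0.929 to 1.11, and only Irf8 lies inside it, while Ifit3 and Ifit1 reach about 6.

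Across the groups, 1 of the 37 genes rose and 1 fell in the libraries labelled Mrp4 knockout, and 35 did not pass. That is 5.41% called, against 18.3% of all tested genes. An unadjusted p under 0.05 was found for 5 of the 37 members, beside 5030 of the 14257 tested genes. The log2 fold change was above 0 for 7 members and below 0 for 30, with a median of -0.26 beside -0.003 over all tested genes. Without WT 3, 26 were above 0 and 11 below, and the median was 0.08 beside 0.003 over the 14429 genes then tested. In that comparison 2 members rose and 0 fell by edgeR (6 higher and 3 lower at an unadjusted p under 0.05). That is 5.41% of members called, against 10.2% of all genes. The unadjusted count over all genes is not given for that comparison. The FPKM ranges of the 2 groups did not overlap for 2 of the 37 members (5.41%), Irf8 and Ifi27l2a, against 23.5% of all tested genes.

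**Figure D4:**
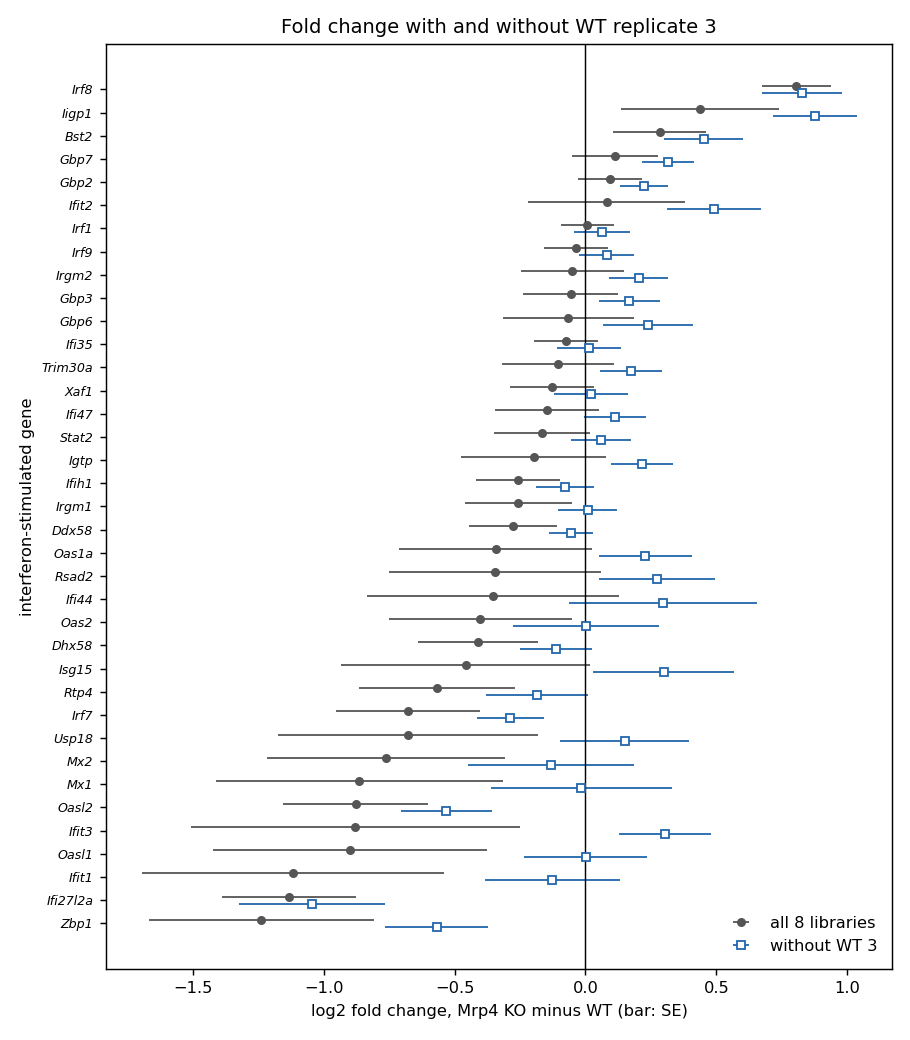
Log2 fold change of each gene, libraries labelled Mrp4 knockout minus WT, with all 8 libraries (filled circles) and without WT 3 (open squares). Bars are the SE. Removing WT 3 moves the values to the right for all 37 genes, and the median goes from -0.26 to 0.08.

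Among the transcription factors, Irf8 rose in the libraries labelled Mrp4 knockout and the other 4 did not pass. Irf8 is induced by interferon gamma and is required for the development of dendritic cells and monocytes. It measured 6.62, 7.82, 7.29 and 6.03 FPKM in WT 1 to 4 and 15.74, 10.71, 13.58 and 10.69 FPKM in the libraries labelled knockout 1, 2, 4 and 5. All 4 of the latter were above every WT library. The means were 6.94 ± 0.781 and 12.7 ± 2.45 FPKM (SD, n = 4), a log2 fold change of 0.81 ± 0.13 (SE, adjusted p = 0.00511 by edgeR). It passed with each library left out in turn, at log2 fold changes of 0.69 to 0.88, and was 0.83 without WT 3.

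Irf7, the factor that amplifies type I interferon production, went with WT 3. It measured 13.97, 12.84, 30.49 and 13.60 FPKM in WT 1 to 4 and 9.85, 10.35, 13.26 and 12.75 FPKM in the libraries labelled knockout. WT 3 was more than double any other library, and the groups overlapped even with it left out. The log2 fold change of -0.68 ± 0.27 did not pass (adjusted p = 0.111) and was -0.29 without WT 3. Irf1, Irf9 and Stat2 had log2 fold changes of 0.01, -0.04 and -0.17, and adjusted p-values of 0.552 or more. Without WT 3 these were 0.06, 0.08 and 0.06, and none of the 3 passed.

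Of the 20 antiviral effectors, 1 fell, 0 rose and 19 did not pass, with a median log2 fold change of -0.51 and of 0.02 without WT 3. Ifi27l2a, which encodes a small hydrophobic protein induced by interferon, fell. It was by far the most abundant member, at 1911.29, 1051.25, 1868.83 and 1489.63 FPKM in WT 1 to 4 and 621.70, 501.30, 1031.02 and 830.17 FPKM in the libraries labelled knockout. The lowest WT library, WT 2, was just above the highest of the others, labelled knockout 4. The means were 1580 ± 400 and 746 ± 234 FPKM (SD, n = 4), a log2 fold change of -1.13 ± 0.26 (SE, adjusted p = 0.0196 by edgeR). The call was lost without WT 1 (-1.03, adjusted p = 0.0511), without WT 3 (-1.05, adjusted p = 0.051) and without the library labelled knockout 1 (-1.05, adjusted p = 0.0554).

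Ifi27l2a set the summed level of the members. Their summed FPKM was 1351 to 2459 in WT and 834 to 1425 in the libraries labelled knockout. With Ifi27l2a left out, the other 36 summed to 328.9, 300.2, 590.5 and 267.2 FPKM in WT 1 to 4 and to 331.2, 332.7, 393.9 and 347.6 FPKM in the libraries labelled knockout. On this sum WT 3 was the highest library and the other 3 WT libraries were the 3 lowest.

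Oasl2 and Zbp1 came next by p but did not pass. Oasl2 is an oligoadenylate synthetase-like protein, and it measured 12.58, 9.22, 22.30 and 9.86 FPKM in WT 1 to 4 against 6.86, 7.50, 10.05 and 6.25 FPKM. The library labelled knockout 4 lay inside the WT range. Its log2 fold change was -0.88 ± 0.28 (adjusted p = 0.0541) and -0.53 without WT 3. Zbp1, a sensor of Z-form nucleic acids that triggers necroptosis, measured 5.21, 3.64, 13.30 and 4.65 FPKM in WT against 2.97, 3.41, 3.12 and 4.24 FPKM. Only the library labelled knockout 5 reached into the WT range. Its log2 fold change of -1.24 ± 0.43 (adjusted p = 0.073) was -0.57 without WT 3. DESeq2 called both lower (adjusted p = 0.00991 and 0.0185), as did edgeR without WT 2 (0.0259 and 0.0312). Over all the alternatives the adjusted p ran from 0.00991 to 0.196 for Oasl2 and from 0.0185 to 0.159 for Zbp1.

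Bst2, or tetherin, which holds budding virions at the cell surface, was the second most abundant member. It measured 31.92, 34.68, 46.35 and 26.05 FPKM in WT 1 to 4 and 38.41, 38.41, 55.74 and 43.30 FPKM in the libraries labelled knockout, with WT 3 inside the range of the latter. The log2 fold change was 0.28 ± 0.18 (adjusted p = 0.281), and 0.45 without WT 3 (adjusted p = 0.0846). Ifit3 and Ifit1 had the widest errors, with -0.88 ± 0.63 and -1.12 ± 0.58. Without WT 3 these became 0.30 ± 0.18 and -0.13 ± 0.26, and neither passed in either comparison. The other 14 effectors, Ifit2, Isg15, Usp18, Mx1, Mx2, Oas1a, Oas2, Oasl1, Rsad2, Xaf1, Rtp4, Trim30a, Ifi35 and Ifi44, ranged from -0.90 for Oasl1 to 0.08 for Ifit2. Without WT 3 the same 14 ranged from -0.19 for Rtp4 to 0.49 for Ifit2, with Oasl1 at 0.00 and 11 of the 14 above 0, and none passed (lowest adjusted p = 0.104). Their group means lay between 0.622 FPKM for Mx2 and 19 FPKM for Ifi35, so the Mx genes are measured on few reads (15.60 to 129.61 expected counts per library).

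**Figure D5:**
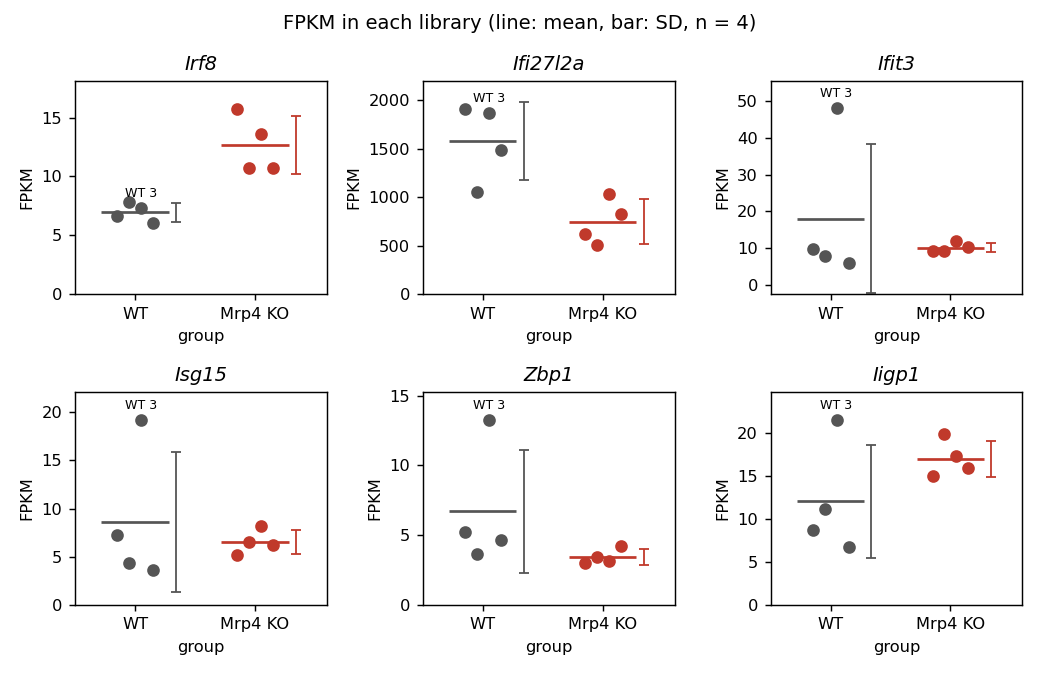
FPKM of 6 genes in each library, with the mean as a line and the SD (n = 4) as a bar beside the points, WT in grey and the libraries labelled Mrp4 knockout in red. The groups are apart for Irf8 and Ifi27l2a, while WT 3 alone lies far above the other 7 libraries for Ifit3, Isg15 and Zbp1 and above the other 3 WT libraries for Iigp1.

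The 3 RNA sensors, Ddx58 (RIG-I), Ifih1 (MDA5) and Dhx58 (LGP2), recognise viral RNA in the cytoplasm, and 0 of 3 passed by edgeR, DESeq2 or limma-voom, or at an unadjusted p under 0.05. Ddx58 measured 9.31, 8.69, 14.99 and 8.78 FPKM in WT 1 to 4 and 9.53, 8.17, 9.69 and 8.68 FPKM in the libraries labelled knockout. WT 3 was the only library above 10 FPKM. The log2 fold changes were -0.28, -0.26 and -0.41 for Ddx58, Ifih1 and Dhx58, and -0.06, -0.08 and -0.11 without WT 3.

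The 9 interferon-inducible GTPases guard cells against intracellular pathogens, and with all libraries 0 of 9 passed by edgeR, DESeq2 or limma-voom, or at an unadjusted p under 0.05. Their median log2 fold change was -0.06, with 3 above 0 and 6 below. Without WT 3 the median was 0.22 and all 9 were above 0, of which 1, Iigp1, passed. Iigp1, an immunity-related GTPase that coats the vacuoles of parasites, measured 8.69, 11.19, 21.58 and 6.73 FPKM in WT 1 to 4. In the libraries labelled knockout 1, 2, 4 and 5 it measured 14.99, 19.84, 17.29 and 15.92 FPKM. All 4 lay above WT 1, 2 and 4 and below WT 3. The log2 fold change was 0.44 ± 0.30 (adjusted p = 0.331) with all libraries and 0.88 ± 0.16 (adjusted p = 0.016) without WT 3. Across its alternatives, Iigp1 passed in that setting only, with adjusted p-values up to 0.595.

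Gbp2, a guanylate-binding protein, was the most abundant GTPase. It measured 26.32, 28.08, 36.03 and 23.12 FPKM in WT 1 to 4 and 30.57, 30.95, 29.59 and 35.31 FPKM in the libraries labelled knockout, a log2 fold change of 0.09 ± 0.12 (adjusted p = 0.62) and of 0.22 without WT 3. WT 1, 2 and 4 were below all 4 of the other group, and WT 3 was above them. Gbp3, Gbp6, Gbp7, Igtp, Irgm1, Irgm2 and Ifi47 lay between -0.26 for Irgm1 and 0.11 for Gbp7 with all libraries. Without WT 3 they lay between 0.01 for Irgm1 and 0.31 for Gbp7, and none of those 7 passed.

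Within the group labelled knockout, the library numbered 4 was the highest of the 4 for 26 of the 37 genes. The libraries of that group lay closer together than those of WT for Ifit3, which ranged from 9.12 to 11.91 FPKM there against 5.85 to 48.19 FPKM in WT. In WT the lowest library was WT 4 for 23 genes and WT 2 for 13. The share of all tested genes that were highest or lowest in a library within its group is not given.

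The pathway above these genes was read from lists of its own. Of 22 interferon ligand genes listed, 3 were in the files and none had enough reads for a test. Interferon gamma (Ifng) had 3, 1, 0 and 0 expected counts in WT 1 to 4 and 0, 4, 0 and 0 in the libraries labelled knockout. Ifnk had 1 and 2 counts in WT 1 and 2 and 0 in the other libraries. Ifnz had at most 3.58 estimated counts, in WT 3. No difference in these transcripts was detectable at this depth, and the other 19 symbols were not analysed here.

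Of 15 tested receptor and JAK-STAT genes, 2 rose, beside 10.2% of all tested genes that rose. Ifngr2, a chain of the interferon gamma receptor, rose from 19.3 ± 2.66 to 26.4 ± 1.92 FPKM (log2 fold change 0.39, adjusted p = 0.0251). Ifnar1, a chain of the type I interferon receptor, measured 11.47, 12.14, 11.58 and 11.36 FPKM in WT and 14.19, 13.70, 13.88 and 13.67 FPKM in the libraries labelled knockout, with no overlap (log2 fold change 0.19, adjusted p = 0.0334). Ptpn6, a phosphatase that restrains JAK kinases, did not pass at 0.46 (adjusted p = 0.0515). Without WT 3, 0 of the 16 then tested passed by edgeR (5 at an unadjusted p under 0.05), with Ifngr2 at 0.40 and Ifnar1 at 0.18. Of all genes, 10.2% passed in that comparison. Ifnar1 passed in 1 of the 8 comparisons that left out a library, and Ifngr2 in 5.

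Of 21 genes that sense nucleic acids or induce interferon, 2 rose and 2 fell, or 19% called beside 18.3% of all tested genes. Tlr9, an endosomal receptor for DNA, rose from 1.82 ± 0.189 to 2.67 ± 0.404 FPKM (log2 fold change 0.49, adjusted p = 0.0355). Irf5, a factor of inflammatory macrophages, rose from 13.9 ± 0.928 to 18.2 ± 2.75 FPKM (0.32, adjusted p = 0.0493). Irf3, which switches on the interferon beta gene, fell from 26.7 ± 1.64 to 22.7 ± 1.69 FPKM (-0.31, adjusted p = 0.0224). Mavs, the mitochondrial adaptor of the RNA sensors, fell from 25.2 ± 1.6 to 23.1 ± 0.839 FPKM (-0.20, adjusted p = 0.0481). These 4 kept their signs without WT 3, at 0.48, 0.37, -0.29 and -0.19. Of the 21, 0 passed then by edgeR (7 higher and 2 lower at an unadjusted p under 0.05). In that comparison 10.2% of all genes passed. Library size alone as the scaling took Irf3 to -0.24 (adjusted p = 0.0536) and Mavs to -0.14 (adjusted p = 0.164).

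Other interferon-induced genes outside the 37 included some that fell both with and without WT 3. Of 59 tested, 3 rose and 6 fell, or 15.3% called beside 18.3% of all tested genes. Those that rose with all libraries were Ifi30, Gbp4 and Oas1c. The median log2 fold change of the 59 was -0.04, with 25 above 0 and 34 below, and WT 3 was the highest library for 41. Without WT 3 the median was 0.10, with 40 above 0 and 19 below. In that comparison 3 rose and 4 fell by edgeR (18 higher and 6 lower at an unadjusted p under 0.05), with 10.2% of all genes called. The genes with the lowest p were Ifi205, Mnda and Ifi204, members of the p200 family of DNA-binding proteins that lie side by side in the genome, and Isg20, an exonuclease. Ifi205 measured 42.47, 26.65, 50.70 and 45.19 FPKM in WT 1 to 4 and 18.19, 21.58, 23.98 and 21.17 FPKM in the libraries labelled knockout, with no overlap (log2 fold change -1.02, adjusted p = 0.00868). Mnda was at 14.9 ± 4.75 and 8.26 ± 0.392 FPKM (-0.92, adjusted p = 0.0154), Ifi204 at 24.1 ± 6.39 and 14.2 ± 1.76 FPKM (-0.83, adjusted p = 0.016) and Isg20 at 16.3 ± 1.46 and 12.2 ± 1.18 FPKM (-0.46, adjusted p = 0.0163). These 4 genes passed with each library left out in turn, at -0.91, -0.68, -0.66 and -0.40 without WT 3. Reads of the p200 genes may be shared between these similar genes.

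Some markers of the cell types that could carry Irf8 and the other members differed between the groups. In bulk tissue, more cells of a type and more RNA per cell cannot be told apart. Of 9 tested dendritic cell markers, 4 rose, 0 fell and 5 did not pass, or 44.4% called beside 18.3% of all tested genes. Those that rose were led by Ccr7 (log2 fold change 1.6), Flt3 (1.08) and Batf3 (0.89), at 1.46, 1.12 and 0.96 without WT 3. Their levels were low, with means in WT and the other group of 0.67 and 2.12 FPKM for Ccr7 (13 to 92 expected counts per library). Flt3 was at 0.47 and 1.05 FPKM (16 to 71 counts) and Batf3 at 4.1 and 8.0 FPKM (32 to 110 counts). Of the 8 comparisons that left out a library, Ccr7 passed in 8, Flt3 in 4 and Batf3 in 3. Batf3 did not pass without WT 3. The log2 fold change was below 0 for 3 of the 9, the lowest at -1.13. No marker on that list was at 0 in all libraries, and its summed level was 20.2 to 33.3 FPKM in WT and 27.2 to 40.1 FPKM in the libraries labelled knockout. Without WT 3, 2 of the 9 rose, with 10.2% of all genes called. Of 12 macrophage markers, 3 rose, 0 fell and 9 did not pass, or 25% called beside 18.3% of all tested genes, led by Itgax (1.53), Emr1 (0.59) and Cd68 (0.47), which were at 1.44, 0.62 and 0.48 without WT 3. Of these 12, 4 had a log2 fold change below 0, the lowest at -0.22. The macrophage sum was 709.2 to 835.4 FPKM in WT, with WT 3 the highest, and 827.1 to 1300 FPKM in the libraries labelled knockout, and 2 of the 12 rose without WT 3. None of these markers was at 0 in all libraries either, and the part of such cells in the level of Irf8 was not tested.

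WT 3 was the highest WT library for the macrophage and mesothelial sums and not for the other marker sums. Its dendritic cell sum of 28.5 FPKM and its lymphocyte sum of 10.6 FPKM lay inside or below the range of WT 1, 2 and 4, which was 20.2 to 33.3 and 11.5 to 12.4 FPKM. Its macrophage sum was 835.4 FPKM beside 709.2 to 739.5 FPKM. Most of that sum came from a single marker with a mean of 605.3 FPKM, while the median marker was at 21.2 FPKM. Gene by gene, the median ratio of WT 3 to the median of the other WT libraries was 1.16 for macrophage markers. It was 1.33 for mesothelial, 1.54 for neutrophil, 1.44 for liver, 1.26 for dendritic cell and 1.2 for endothelial markers. For adipocyte and lymphocyte markers it was 0.964 and 0.889. Mesothelial markers, from the fat pad lining, summed to 243.6 FPKM in WT 3 and 155.6 to 223.8 FPKM in the other WT libraries. In those labelled knockout they summed to 57.1 to 156.5 FPKM. Of these 6 markers 1, Wt1, fell by edgeR (16.7% called beside 18.3% of all tested genes). All 6 had a log2 fold change below 0, with a median of -0.94. At an unadjusted p under 0.05, 5 were lower, and DESeq2 called 4 lower. Of 12 liver markers 12 rose, with sums of 46.5 to 113.7 FPKM in WT and 807.6 to 1542 FPKM in the libraries labelled knockout. WT 3, at 68.1 FPKM, was inside the WT range. Of the other lists, 4 of 6 endothelial markers rose (66.7% called), and 1 of 9 adipocyte markers rose and 2 fell (33.3%). By edgeR 0 of 10 lymphocyte and 0 of 5 neutrophil markers passed (3 and 2 at an unadjusted p under 0.05, 0 and 1 by DESeq2). All 10 tested lymphocyte markers had a log2 fold change above 0 (median 0.55, and 0.56 without WT 3). The lymphocyte sum was 10.6 to 12.4 FPKM in WT and 14.5 to 21.8 FPKM in the libraries labelled knockout, with no overlap. The median of the lymphocyte genes' mean levels was 0.75 FPKM. Without WT 3, 12 liver and 4 endothelial markers rose, 1 mesothelial marker fell, and 0 adipocyte markers rose by edgeR (1 higher at an unadjusted p under 0.05) and 2 fell. Among all genes 10.2% passed then. The part of these cells in the members' levels was not tested.

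Several members cannot be read in isolation. The files state no use of strand, and 12 of the 37 genes overlap another annotated gene, among them Ifit1 with Ifit1bl1, Ifi27l2a with Ifi27, Rtp4 with Masp1 and Stat2 with Apof. Oas1a, Gbp6, Iigp1, Trim30a and Ifi27l2a also have close copies nearby in the mouse genome, so how the authors' counting split reads between copies could affect their values.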

How the data were processed

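Polyadenylated RNA of 8 epididymal fat libraries was read as paired reads of 100 bases on the BGISEQ-500 platform, per the labels' protocols. The submitters' processing notes name the mouse build mm9 and Bowtie2, with no version. The quantifier is not named in the labels or headers. The authors deposited, per the file headers, an expected count, an FPKM value and a transcript length for each gene, and the expected counts were exactly whole as deposited, with a tolerance of 0, for 92% to 92.6% of the genes listed in a library. A gene not listed in a library was taken as 0.

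Expected counts were rounded and tested in edgeR 4.0.16 (R 4.3.3) with TMM factors (0.959 to 1.037), filterByExpr (14257 genes kept, 4434 removed) and the two-sided quasi-likelihood test with robust=TRUE, in a model of genotype alone. P-values were adjusted over all tested genes by the Benjamini-Hochberg method, with a threshold of 0.05. The SE is the absolute log2 fold change over the root of the F statistic. FPKM is given as mean ± SD over 4 libraries. The same code was tested on simulated counts. Reads carry no molecular identifiers.

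The members and lists were chosen with earlier results of these data known. By rule, every library is given for members that pass, the 3 most abundant and the 3 with the lowest p among the rest. Other pathway lists give up to 4 genes and marker lists up to 3, taken by lowest p among genes whose mean reached 1 FPKM in WT or in the other group. Ifit1, Ifit3, Iigp1 and Ddx58 were given in full after their values were seen, and the ratios of WT 3, the promoters shown and the sum without Ifi27l2a were also chosen then. Genes were matched by number to RefSeq on GRCm38.p6 for promoters and overlaps only, since that build is not mm9. Alternatives were each library left out, a block for the replicate number, DESeq2 1.42.0 and its size factors, limma 3.58.1 (voom, and FPKM with a pseudocount of 1 or 0.1 on the log2 scale), upper quartile or library size scaling, 2 filters and 2 thresholds. The result for 1 gene of the receptor and JAK-STAT list is not reported here.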

Additional observations from a re-analysis of the deposited data

Results flagged for a closer look

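For 13 interferon-stimulated genes, WT 3 lay so far above the other 3 WT libraries that its gap to the nearest of them, as a share of the whole WT range, passed Dixon's 95% critical value for 4 samples. The gap was 0.936 of the range for Irf7, 0.838 for Ifit1, 0.906 for Ifit3, 0.903 for Usp18, 0.890 for Oas1a, 0.848 for Oasl1 and 0.837 for Zbp1. It was 0.933 for Ifi44, 0.902 for Ddx58, 0.861 for Dhx58, 0.878 for Ifi47, 0.847 for Igtp and 0.955 for Gbp6. In the group labelled Mrp4 knockout, the library numbered 4 was high for Rtp4, with a gap of 0.948, and the library numbered 1 was low for Irgm2, with a gap of 0.967. Outside the set, WT 1 was high for Ptpn6, at 0.842, and the library labelled knockout 1 was high for Ccr7, at 0.868. These are 17 of 112 group ranges examined. Chance flags about 1 in 20 groups, and genes of 1 library are not independent of each other.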

How the results depend on the processing

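Over all genes, 2606 passed with every library, 141 with the replicate block, 551 at an adjusted p of 0.01, 4178 at 0.1, and 1172 to 3683 with 1 library left out. Of the calls 55.9% were higher, and 74.1% with library size alone. Among the 37 genes, 1 rose (0 with the block, 1 to 2 with 1 library left out) and 1 fell (3 by DESeq2, 0 with the block, 0 at an adjusted p of 0.01, 3 at 0.1, 0 to 3 with 1 library left out). The count that fell was 0 without WT 1, WT 3 or the library labelled knockout 1, and 3 without WT 2. The median log2 fold change of -0.26 ran from -0.366 to 0.081 with 1 library left out, above 0 only without WT 3, and from -0.27 to -0.09 under the other scalings, filters, tools and units. By edgeR without WT 3, or with the block, the sign of Ifit3 turned (0.303 and 0.293, against -1.169 at the lowest with 1 library left out), and DESeq2 gave it no p-value. Abcc4 turned to 0.018 with library size alone, 0.028 and 0.035 on the FPKM scales and 0.015 with the block. Irf8 passed in 17 of 18 alternatives (adjusted p = 4.29e-06 to 0.0682) and Ifi27l2a in 14 of 18 (9.75e-05 to 0.0683).

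The replicate numbers 1, 2 and 4 occur in both groups, and libraries that share a number showed no sign of pairing. The correlations of same-numbered deviations were 0.01, -0.07 and -0.13, and 0 of 3 WT libraries correlated best with their own number. With 3 such numbers, this check cannot exclude a pairing. In the fit with the replicate number as a block, WT 3 and the library labelled knockout 5 have no partner and carry no weight. The added terms also leave little from which to estimate the spread, so that fit has less power than the main one. There 141 genes passed, 0 members rose and 0 fell, with Irf8 at 0.88 (adjusted p = 0.0682) and Ifi27l2a at -1.14 (adjusted p = 0.0683), and the median over the members was 0.086.

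With 4 libraries a group and no second library like WT 3, whether its level recurs was not tested. Genes at few reads, such as the interferon ligands, are limited by depth.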
